A study of Mus musculus with 6 samples.

Results

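Accessible regions lying deep inside very long genes of R1 cells are described here; R1 is an established line of mouse embryonic stem cells. A region was a member when its midpoint lay inside a protein-coding gene spanning 300 kb or more on chromosomes 1 to 19 and more than 1 kb from both limits of every protein-coding gene. The members numbered 4165, of 68288 autosomal regions (6.10%) and 69689 regions in all. They lay in 502 of the 533 genes of that span. The choice used position only, and the readout is the name of 1 of 9 clusters that the authors gave each region.

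Accessibility was profiled by ACC-seq, in which Tn5 transposase inserts sequencing adapters into open DNA, in 6 libraries of wild-type R1 cells, 2 per group. Fresh cells were tagmented unfixed at 37 °C. Fix cells were fixed in 1% formaldehyde for 10 min and tagmented at 55 °C. Fix_1,6-Hex cells stood in 10% (w/v) 1,6-hexanediol, which breaks up many condensates, for 30 s, were fixed in its presence, and were otherwise treated like Fix cells. All groups started from 100000 cells, were tagmented for 30 min, came from 1 cell line grown in serum, LIF and 2i (CHIR-99021 and PD0325901) on fibroblast feeders, and were freed of feeders by replating. Temperature therefore changed together with fixation between Fresh and Fix. The design aimed at changes in accessibility when condensate occupancy is altered, but the deposited table holds a position and a cluster name per region and no value per library, so no difference between the 3 groups could be measured and the depth is unknown. The sources used here do not say what each cluster stands for, and cluster numbers serve below as names without order. Of 10 embryonic stem cell markers, 9 had a region within 1 kb of a gene limit (the exception was Tdgf1), and of 10 fibroblast markers 5 did (Col1a1, Col1a2, Thy1, Pdgfrb and Twist2). The share of all protein-coding genes with such a region is not given here, so these counts have no background. A region at a gene limit is not a measure of transcription, and the part of feeder cells was not tested.

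Genes of this size consist almost entirely of intron. Introns can carry enhancers, which act on promoters at a distance, and internal promoters that start shorter forms of the gene's product. Many of the longest genes of mammals encode adhesion molecules and receptors of neurons, and several of them coincide with common fragile sites, stretches that break when replication is slowed.

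Internal transcript starts are elements of these regions for which sequence was at hand, and 6 of them are printed first as examples of wide and narrow regions and of CpG-rich and CpG-poor sequence. Most members covered no annotated start, and no sequence was read for them. Each line gives the 150 bases just upstream of an annotated start that lay inside a member region, read 5′ to 3′ on the strand of the transcript, from RefSeq on GRCm38.p6, which is mm10. CpG dinucleotides are in capitals. The 6 were chosen after their values were seen.
Nav2, cluster 8 (chr7:49246039-49246188, + strand): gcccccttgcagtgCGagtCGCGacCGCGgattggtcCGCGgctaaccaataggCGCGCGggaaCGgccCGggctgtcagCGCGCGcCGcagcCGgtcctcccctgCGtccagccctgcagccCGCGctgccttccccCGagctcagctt
Nrxn3, cluster 8 (chr12:89812333-89812482, + strand): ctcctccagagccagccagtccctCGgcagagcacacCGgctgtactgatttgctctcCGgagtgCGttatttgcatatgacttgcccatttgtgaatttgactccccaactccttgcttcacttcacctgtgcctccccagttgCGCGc
Stag1, cluster 3 (chr9:100643298-100643447, + strand): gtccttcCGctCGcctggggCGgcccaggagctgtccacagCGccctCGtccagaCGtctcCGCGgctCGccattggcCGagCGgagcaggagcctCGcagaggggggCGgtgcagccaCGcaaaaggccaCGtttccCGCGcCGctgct
Kcnq1ot1 inside Kcnq1, cluster 3 (chr7:143296548-143296697, - strand): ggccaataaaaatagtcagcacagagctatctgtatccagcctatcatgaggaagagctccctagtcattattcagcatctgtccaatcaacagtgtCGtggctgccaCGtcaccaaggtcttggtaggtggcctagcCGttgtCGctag
Esrrg, cluster 7 (chr1:187997677-187997826, + strand): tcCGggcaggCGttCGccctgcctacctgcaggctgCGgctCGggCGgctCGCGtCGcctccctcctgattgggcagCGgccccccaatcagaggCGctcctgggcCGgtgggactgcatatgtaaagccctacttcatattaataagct
Cdh18, cluster 9 (chr15:23036313-23036462, + strand): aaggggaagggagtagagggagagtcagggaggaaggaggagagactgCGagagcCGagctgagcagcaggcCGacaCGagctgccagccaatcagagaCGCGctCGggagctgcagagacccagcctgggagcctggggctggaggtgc
Nav2, a cytoskeletal guidance protein, has 21 CpG dinucleotides in its 150 bases, in a 1383 bp region of cluster 8. Nrxn3, a presynaptic adhesion receptor, has 6 upstream of its internal start, under a 970 bp region of the same cluster. Stag1, a cohesin subunit, has 18 under a 3869 bp region of cluster 3. Kcnq1ot1, an imprinted non-coding RNA that runs antisense inside the potassium channel gene Kcnq1, has 4 under a 1303 bp region of cluster 3. Narrow regions occurred at CpG-bearing starts as well: that of the nuclear receptor gene Esrrg was 200 bp wide with 12 CpG dinucleotides, and that of the cadherin gene Cdh18 was 354 bp wide with 7.

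Member regions also covered 3 of the 52 microRNA hairpins annotated inside these genes, a count given without a background share. The mature sequences of 2 of them, picked by host gene, are shown with the seed (bases 2 to 8) in capitals. Expression of hairpins and host genes was not measured.
mmu-miR-199a-5p: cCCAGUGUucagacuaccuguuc
mmu-miR-199a-3p: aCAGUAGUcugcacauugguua
mmu-miR-153-5p: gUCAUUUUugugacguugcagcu
mmu-miR-153-3p: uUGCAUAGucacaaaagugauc
Mir199a-2 lies inside the span of Dnm3, a dynamin gene, but on the opposite strand, under a region of cluster 1 that was 200 bp wide. Mir153 lies inside Ptprn2, a gene for a secretory vesicle protein, under a region of cluster 8 that was 489 bp wide. The third, Mir7687, lies inside Gse1 under a 5422 bp region of cluster 8. No seed was shared among the 4 sequences printed.

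The members were mostly narrow and mostly far from any gene limit. They were 200 to 8405 bp wide with a median of 396 bp (quartiles 272 and 659 bp), and their median distance to the nearest limit of a protein-coding gene was 100.7 kb. Within 5 kb of a limit lay 201 of 4165. These distances follow largely from the rule, because most of a gene of 300 kb or more lies far from its ends. Just inside the distance rule, 50 members lay 1 to 1.5 kb from a limit, and just outside it 94 regions of these genes lay 0.5 to 1 kb from one. Just below the span rule, the 60 genes of 280 to 300 kb held a median of 6 regions in the gene body, against 5 for the 43 genes of 300 to 320 kb. Members inside more than 1 protein-coding gene numbered 79.

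Cluster 9 held the most members, 1302 of 4165 or 31.3%, where 26.3% of all autosomal regions belonged to it. Cluster 7 came next with 1052 (25.3%, against 18.9% of all autosomal regions), then cluster 6 with 665 (16.0%, against 12.6%) and cluster 1 with 573 (13.8%, against 18.7%). Cluster 5 held 260 members (6.24%, against 4.93%) and cluster 8 held 186 (4.47%, against 9.07%). Clusters 3, 4 and 2 were rare, with 53 (1.27%, against 3.66%), 43 (1.03%, against 3.51%) and 31 members (0.744%, against 2.3%). The background shares include the regions at gene limits, which the rule leaves out. Member widths followed the clusters: cluster 9 had a median of 277 bp, cluster 7 of 339.5 bp, cluster 1 of 465 bp and cluster 3 of 1321 bp. Over the 19 autosomes the share of members in cluster 7 had a lowest value of 18.5%, a median of 25.3% and a highest of 30.6%, and that in cluster 1 ran from 7.65% through a median of 13.6% to 18.5%. The share in cluster 5 ran from 3.29% through 6.02% to 9.95%, and that in cluster 8 from 2.39% through 4.04% to 7.52%.

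Regions inside shorter protein-coding genes, also more than 1 kb from any limit, gave the closest comparison (25240 regions). Very long genes had less of clusters 1 and 8 and more of clusters 5 and 7. Each autosome gave 1 difference in share, and differences were tested by a two-sided permutation test that flips their signs, with 100000 draws and Benjamini-Hochberg adjustment over the 9 clusters at a threshold of 0.05. The share of cluster 1 differed by -5.82 percentage points ± 3.24 (mean ± SD, n = 19) and was lower on 19 of 19 autosomes (permutation adjusted p = 4.5e-05). Cluster 8 differed by -2.01 points ± 1.73 and was lower on 18 of 19 (permutation adjusted p = 4.5e-05). Cluster 5 was higher by 2.03 points ± 1.86, on 17 of 19 autosomes (permutation adjusted p = 0.000247), a call lost against regions outside genes (0.334 points, permutation adjusted p = 0.422). Cluster 7 was higher by 3.42 points ± 3.58, on 18 of 19 (permutation adjusted p = 0.000247). Cluster 6 was higher by 2.13 points ± 3.50 on 12 of 19 autosomes (permutation adjusted p = 0.0207), a call lost for spans of 500 kb or more (2.23 points, permutation adjusted p = 0.0591), over 5 kb from limits (1.87), against regions outside genes (1.23) and against genes of 100 to 300 kb (0.855). The rare clusters 3 and 4 differed by -0.587 and -0.694 points (permutation adjusted p = 0.00225 and 0.00113), and neither passed over 5 kb from limits (-0.326 and -0.321 points), a setting chosen, as for cluster 6, after seeing the data, or against regions outside genes or genes of 100 to 300 kb. Clusters 2 (-0.255 points, permutation adjusted p = 0.16) and 9 (1.78 points, permutation adjusted p = 0.0622) did not pass. Cluster 9 passed when autosome 1, 2, 14 or 15 was left out (1.97, 2.09, 2.06 and 2.13 points), and cluster 2 when autosome 12 was (-0.397 points).

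**Figure D1:**
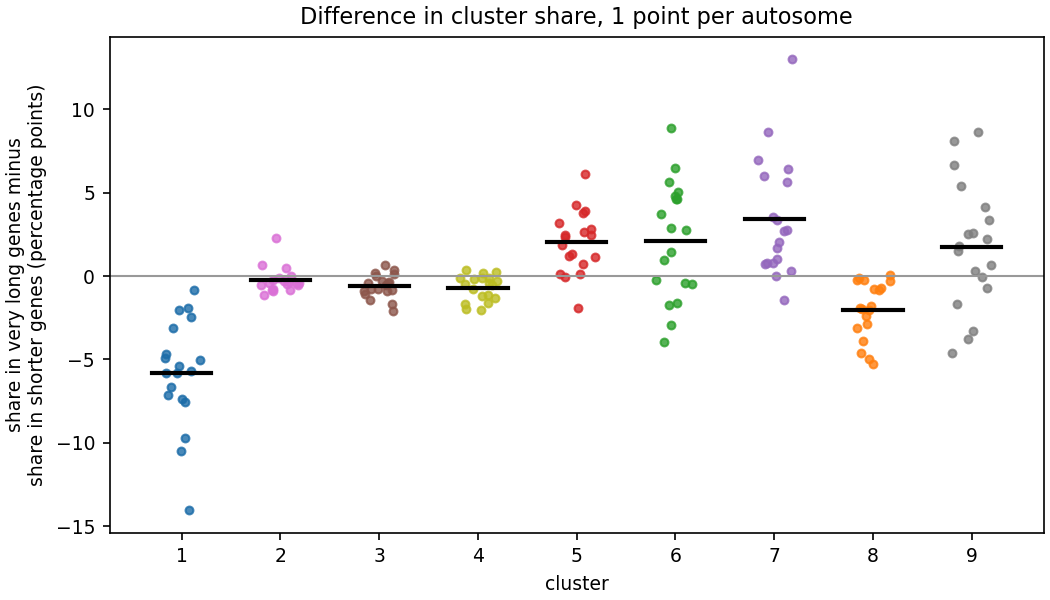
Share of regions in each cluster inside very long genes minus that inside shorter genes, in percentage points, with 1 point per autosome and a bar at the mean of the 19. All points of cluster 1 lie below 0, and 18 of 19 points of cluster 7 lie above it.

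Shares also differed between classes of gene below 300 kb, given here without a test. Cluster 1 made up 26.7% of the regions inside genes under 30 kb, 18.8% in genes of 30 to 100 kb, 16.4% at 100 to 200 kb and 15.6% at 200 to 300 kb. Among the very long genes it made up 14.7% of 2305 regions at 300 to 500 kb, 12.9% of 1344 at 500 kb to 1 Mb and 11.8% of 516 in the 55 genes of 1 Mb or more. Cluster 5 stood at 2.64% in the shortest class, at 4.99% at 300 to 500 kb, at 6.99% at 500 kb to 1 Mb and at 9.88% in the longest class. Cluster 8 went from 9.79% in the shortest class to 3.29% in the longest. Set against genes of 100 to 300 kb only, very long genes still differed in cluster 1 (-2.38 points, permutation adjusted p = 0.0477) and cluster 5 (1.32 points, permutation adjusted p = 0.0477), whereas the differences in clusters 7 (1.09 points) and 8 (-0.466 points) no longer passed (permutation adjusted p = 0.414 for both).

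**Figure D2:**
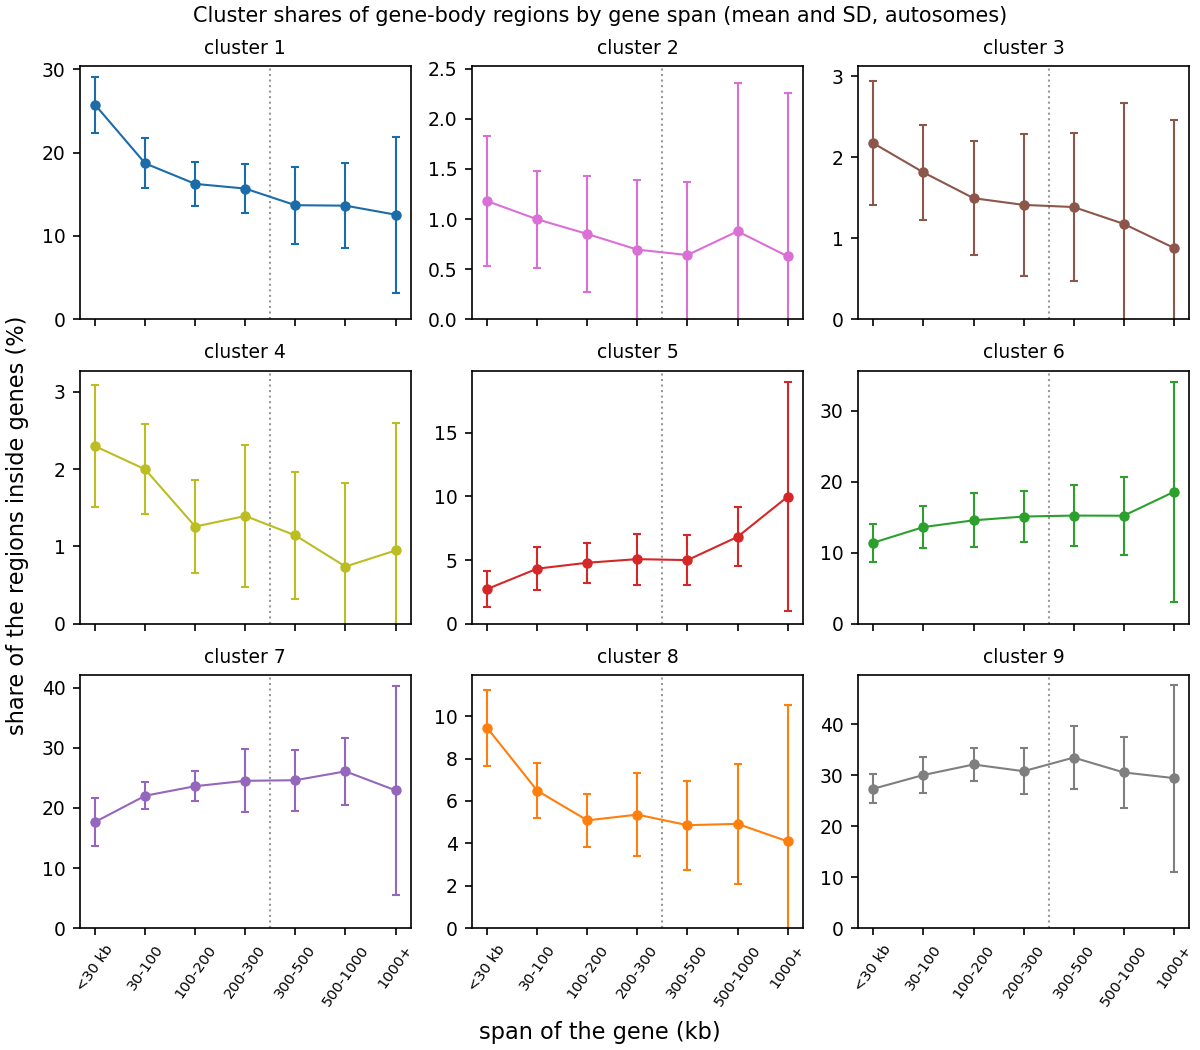
Share of each cluster among regions inside genes, by span of the gene in kb, as the mean over 19 autosomes with error bars of 1 SD cut off at 0; vertical scales differ between panels, and the dotted line marks 300 kb. Cluster 1 and cluster 8 start at their highest value in genes under 30 kb, and cluster 5 is highest in genes of 1 Mb or more, where the spread over autosomes is widest.

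Cluster shares also differed with position inside the gene. Members within 20 kb of a limit (566) had more of cluster 1 than those over 100 kb away (2093), 21.4% against 11.6%, higher on 17 of 19 autosomes (permutation adjusted p = 0.00117). They also had more of cluster 8, 6.89% against 3.34% (permutation adjusted p = 0.0045), and less of cluster 7, 18.7% against 25.6% (permutation adjusted p = 0.0045). Cluster 5 was less frequent too, 3.89% against 7.64% (permutation adjusted p = 0.0173). So was cluster 2, 0.177% against 0.717% (permutation adjusted p = 0.0346), but with only 1 region within 20 kb. Its share was lower on 8 of 19 autosomes, higher on 1 and tied on the others. The cluster 5 call was lost with classes cut at 10 and 50 kb (-2.73 points, permutation adjusted p = 0.0944), and cluster 6, at -2.04 points here, passed there (-4.04 points). The 201 members within 5 kb of a limit were the most unlike the rest, with 36.8% in cluster 1 and 0.995% in cluster 5. The 365 members at 5 to 20 kb had 12.9% in cluster 1, against 13.6% at 20 to 50 kb and 14.1% at 50 to 100 kb. The higher cluster 1 share within 20 kb thus lay mostly in the members within 5 kb. At the other end, the 813 members over 200 kb from any limit had 11.2% in cluster 1 and 9.10% in cluster 5.

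To compare like distances, both sides were restricted to regions 20 kb or more from every limit, 3599 members and 9049 regions in shorter genes. Cluster 1 was still lower in very long genes (-3.37 points ± 2.93, lower on 18 of 19 autosomes, permutation adjusted p = 0.00027) and cluster 5 still higher (1.64 points ± 2.02, higher on 14 of 19, permutation adjusted p = 0.00814). Clusters 7 (1.73 points) and 8 (-0.628 points) no longer passed (permutation adjusted p = 0.256 for both), nor did cluster 6 (1.22 points, permutation adjusted p = 0.256), and clusters 2 and 9 differed by 0.0142 and -0.0576 points. Against 13531 regions outside genes at the same distances, cluster 1 alone passed (-2.21 points ± 2.95, lower on 15 of 19, permutation adjusted p = 0.0225). Cluster 5 stood at 6.61% of members and 6.87% of the regions outside genes there, and the mean difference over autosomes was -0.182 points ± 1.83 (permutation adjusted p = 0.668). At 50 kb or more the cluster 1 difference from regions outside genes was -0.275 points and did not pass (permutation adjusted p = 0.829).

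Very long genes held accessible regions thinly compared with shorter genes. Per Mb of gene body over 1 kb from limits they held 14.2 ± 3.18 regions (SD, n = 19 autosomes), against 39.1 ± 5.26 in shorter genes, lower on 19 of 19 (permutation adjusted p = 2e-05), where 1e-05 before adjustment is the smallest that 100000 draws can give. Outside genes the density was 18.9 ± 3.80 per Mb, and very long genes were lower on 18 of 19 autosomes (permutation adjusted p = 2e-05). Over 20 kb from all limits, the density was 13.3 ± 3.13 per Mb in very long genes, 32.6 ± 4.50 in shorter genes and 12.9 ± 2.32 outside genes. There the difference from shorter genes passed (permutation adjusted p = 2e-05) and that from regions outside genes, 0.425 ± 2.16 per Mb, did not (permutation adjusted p = 0.404). The median gap to the nearer of the neighbouring regions, as a mean over autosomes, was 11.4 kb in very long genes and 4.86 kb in shorter ones. It was larger on 19 of 19 autosomes (permutation adjusted p = 2e-05). Members were also narrower, with a median width of 398 bp against 423 bp, on 18 of 19 autosomes (permutation adjusted p = 0.00016). Neighbouring regions within 10 kb had the same cluster in 23.3% of pairs inside very long genes and 22.2% inside shorter genes, a difference of 1.04 points ± 5.00 that did not pass (permutation adjusted p = 0.376). The share of like pairs that the cluster shares alone would give was not computed, so neither percentage has a background.

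Of the 533 very long genes, 502 (94.2%) held at least 1 member, where 45.1% of the 20132 protein-coding genes under 300 kb held a region in the gene body; the longer genes have more room, so the shares describe size as well. The median was 5 members per gene (quartiles 3 and 11), or 1.04 per 100 kb. Members were uneven between genes, and the 10 genes with most of them held 8.26%. Msi2, an RNA-binding protein that represses translation in progenitor cells (chr11:88339382-88718306), had 47 members in 379 kb, 12.4 per 100 kb: 12 of cluster 6, 11 of cluster 7, 10 of cluster 9 and 8 of cluster 1. Etl4 (chr2:19910207-20810535) had 43, of which 12 were in cluster 6, and its largest member was 8405 bp wide (cluster 2), the widest of all 4165. Dst, a cytoskeletal linker, had 38 members, and Gse1, a coiled-coil protein, had 33, with 10 in cluster 1.

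Single genes are given by the clusters of their members, with no test; several were named because they held the most members of a cluster, so a high count there follows from the choice. Over all members 31.3% were in cluster 9, 25.3% in cluster 7 and 6.24% in cluster 5. Pde4d, a cAMP phosphodiesterase, had 34 members with 7 in cluster 5, and Gpc6, a glypican, had 5 of its 11 there. Tenm3, a teneurin of synapse formation, had 32 members, 12 of them in cluster 7 and 0 in cluster 1, while its relative Tenm4 had 30, with 9 in cluster 7 and 5 in cluster 1. Smyd3, a lysine methyltransferase, had 13 of 29 in cluster 7 and 0 in cluster 1. Magi1, a scaffold of cell junctions, had 13 of 27 in cluster 7. Cacna1a, a neuronal calcium channel, had 29 members in 302 kb, 13 of them in cluster 9 and 8 in cluster 1, and 17 of the 29 were at least 250 bp wide. Nav2 had 16 of 27 in cluster 9, and Camta1, a transcription activator, 15 of 29. Arhgap26, a GTPase-activating protein, had 13 of 29 in cluster 9. Macf1, a microtubule and actin linker, had 11 of 25 in cluster 6 and 0 in cluster 9. Rere, a nuclear receptor corepressor, had 26 members at 7.64 per 100 kb.

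**Figure D3:**
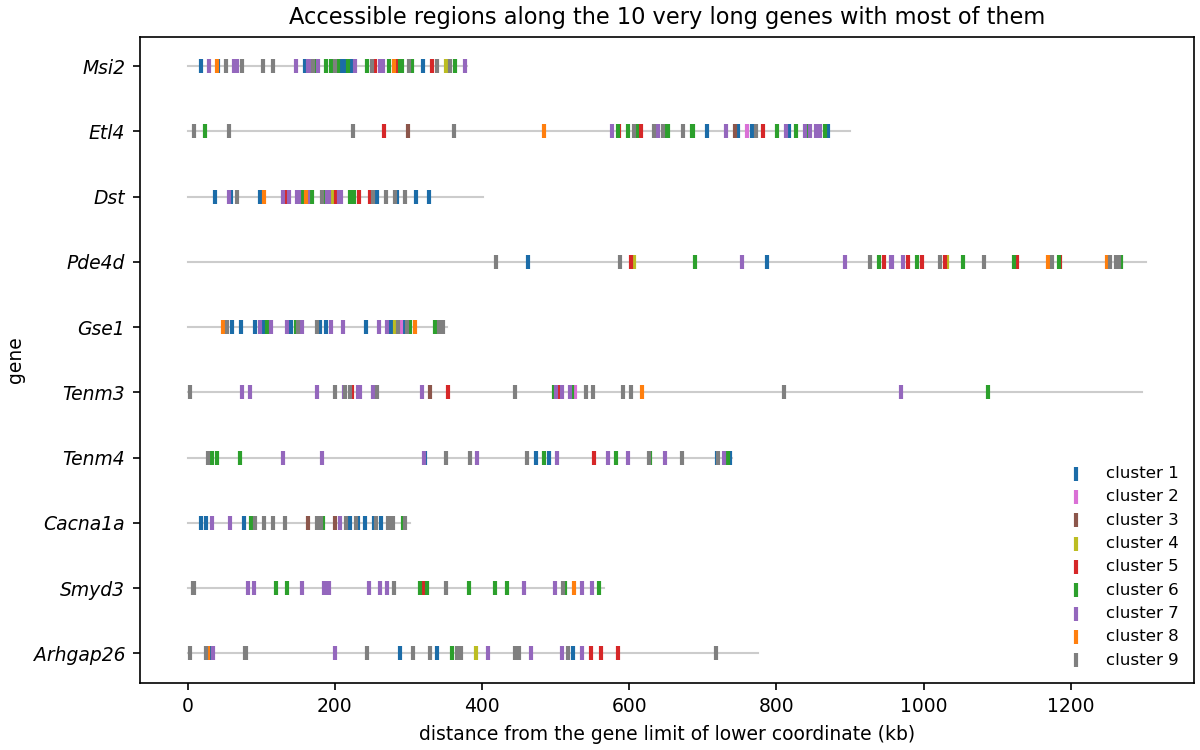
Position of every member region in the 10 very long genes with most of them, in kb from the limit of lower coordinate, coloured by cluster; grey lines show the span of each gene. Members gather in stretches, such as the right-hand part of Etl4, and neighbours often have different clusters.

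The longest genes were not those with most members. The longest gene, the receptor phosphatase gene Ptprd (2271 kb), had 10, and Cntnap2, a neuronal adhesion gene of 2241 kb, had 19. Lsamp, also of neuronal adhesion, had 9 in 2197 kb, with 6 in cluster 9. Lrp1b, a lipoprotein receptor relative, had 5 in 2058 kb, and Macrod2, an ADP-ribose hydrolase, had 25 in 1998 kb, with 9 in cluster 6. The longest genes with 0 members were Gpc5 (1433 kb), Nrg3, a growth factor (1108 kb), Dgkb (754 kb), Fstl5 (636 kb) and Pkhd1 (560 kb). Of the 55 genes of 1 Mb or more, only Gpc5 and Nrg3 held 0, and both had a region at their annotated start, of cluster 8 and cluster 1.

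**Figure D4:**
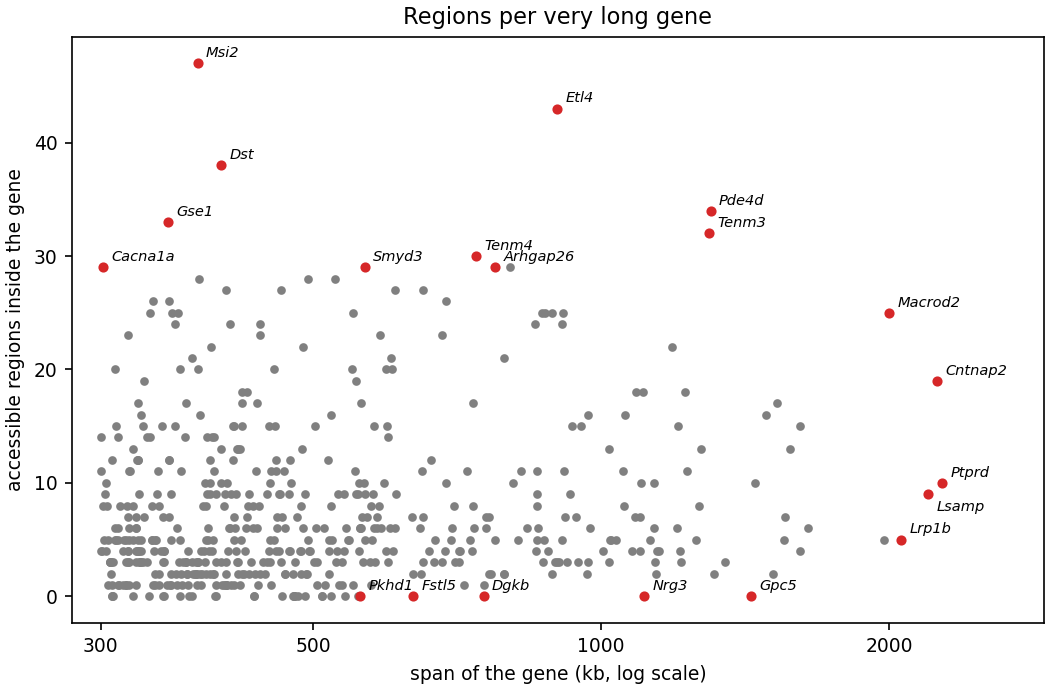
Number of member regions in each of the 533 very long genes against gene span in kb on a log scale; red points are the 10 genes with most members (Camta1 tied at 29 and had fewer per 100 kb), the 5 longest and the 5 longest with 0. Msi2 stands highest with 47 at 379 kb, and Ptprd, the longest, has 10.

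Widest members were of several clusters. Behind the Etl4 region came those of Camkmt (5428 bp, cluster 6), Gse1 (5422 bp, cluster 8), Macf1 (5348 bp, cluster 6) and Zfp423 (5267 bp, cluster 1), the last of which reached past the limit of its gene although its midpoint lay 1.64 kb inside.

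Gene groups are described by counts beside the values over all very long genes, of which 94.2% held a member, with no test, and the lists were chosen with earlier results of these data known. Among 31 very long synaptic adhesion genes, 29 held a member, with a median of 0.489 per 100 kb against 1.04 over all very long genes; examples are Nlgn1 with 5 members and Nrxn3 with 4 in 1612 kb. Ion channel and transmitter receptor genes (35 of 38 with a member, 0.597 per 100 kb) had 225 members, of which 37.8% were in cluster 9 (31.3% over all members), 20.0% in cluster 1 (13.8% over all) and 14.2% in cluster 7 (25.3% over all). Their glutamate receptors Grid1 and Grik2 had 7 and 5 members. All 13 very long cadherin and catenin genes held a member (median 0.826 per 100 kb), among them Cdh4 with 11 and Cdh12 with 4 in 1150 kb.

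At the other end, all 34 very long cytoskeleton and scaffold genes held a member (median 2.00 per 100 kb), with 442 members in all and 8.37% in cluster 5 (6.24% over all members); Syne1, a nuclear envelope linker, had 9. Small GTPase regulators (12 of 13 genes, median 1.62 per 100 kb) had 8.15% in cluster 6 (16.0% over all) and 37.8% in cluster 9 (31.3% over all), and Dock1, an exchange factor, had 5 of its 15 in cluster 5. Transcription factor genes (31 of 33, median 8 members per gene) had 333 members with 6.61% in cluster 8 (4.47% over all), among them Foxp1 with 15 members, Mecom with 10 and Zbtb20 with 6. Of 6 very long chromatin regulator genes, all held a member, 64 in sum, and they ranged from Arid1b, a BAF subunit, with 26 to the deacetylase gene Hdac9 with 3 and Setbp1 with 2. The 7 RNA-binding protein genes had 104 members, 32.7% of them in cluster 7 (25.3% over all). Msi2 alone held 47 of the 104, and Rbfox1 held 17, Rbfox3 15 and Celf2 9. Genes of common fragile sites (18 of 19) had 207 members and 31.9% in cluster 7 (25.3% over all). Of these, the tumour suppressor Wwox had 25 and Fhit 15. Signalling enzymes (36 of 39, median 1.20 per 100 kb) held 318 members, among them Prkce and Prkca with 9 each and Prkg1 with 6. Metabolism and trafficking genes (26 of 27, median 0.935 per 100 kb) held 204 with 29.9% in cluster 7 (25.3% over all), among them Fto and Trappc9 with 9 each and Vps13b with 6.

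A minority of members covered a transcript start. Starts were at hand for 18 autosomes, on which 147 of 3988 members (3.69%) covered an annotated start; in 115 it was a start of the host gene and in 39 a start of a long non-coding RNA. The members' midpoints lay over 1 kb from gene limits, but in 16 of the 147 every covered start lay within 1 kb of a limit of the host. The members that covered a start were wider, with a median of 1068 bp against 391 bp, and the medians differed by a mean of 681 bp ± 464 (SD, n = 18), higher on 17 of 18 autosomes (permutation p = 2e-05). A wider region is more likely to cover a start, so the split itself favoured wide members. Widths also differed between clusters, as given above. Shares were not compared at matched width, and whether the cluster differences below follow from width was not tested. Members with a start were more often in cluster 1, 35.4% against 12.8% (higher on 16 of 18, permutation adjusted p = 0.00171), and in cluster 8, 20.4% against 3.80% (higher on 13 of 18, permutation adjusted p = 0.00471). Cluster 7 was less frequent at starts, 6.80% against 26.0%, lower on 18 of 18 autosomes (permutation adjusted p = 9e-05). Cluster 9 (14.3% against 31.8%) did not pass (permutation adjusted p = 0.0501). The cluster 1 difference was smaller away from gene limits: for the 103 covering members 5 kb or more from limits, cluster 1 stood at 23.3% against 12.2% (permutation adjusted p = 0.114), cluster 8 at 20.4% against 3.72% (permutation adjusted p = 0.00616) and cluster 7 at 9.71% against 26.4% (permutation adjusted p = 9e-05).

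**Figure D5:**
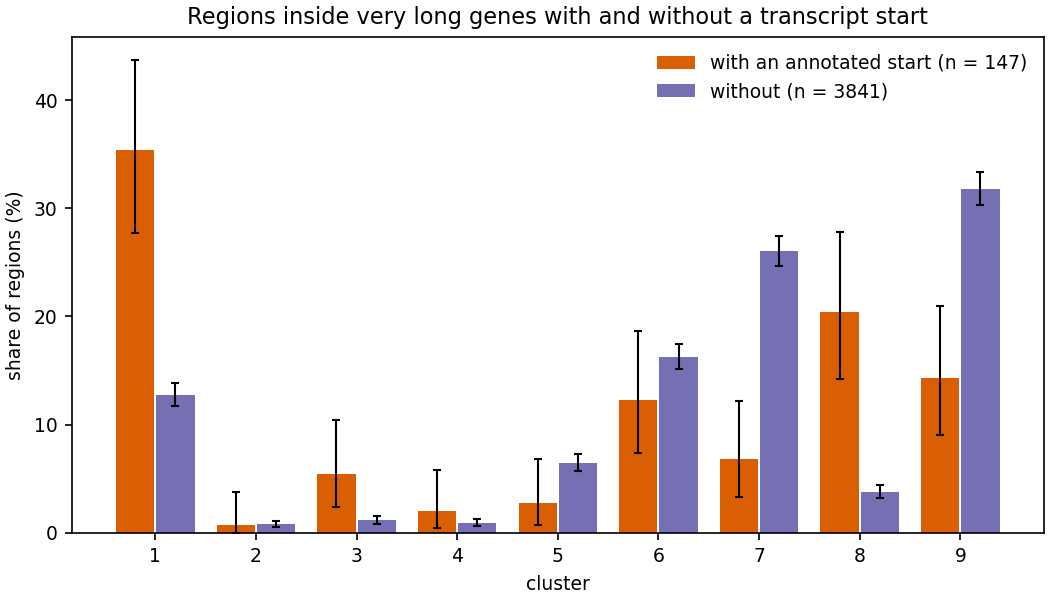
Share of member regions in each cluster, in percent, for regions with (n = 147) and without (n = 3841) an annotated transcript start on 18 autosomes; error bars are exact binomial 95% intervals, which cover counting error only. Clusters 1 and 8 are taller at starts (35.4% and 20.4%), and cluster 7 is shorter (6.80%). Regions with and without a start were not matched by width.

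Not all internal starts were open. Of 805 annotated starts inside very long genes and more than 1 kb from limits, 157 (19.5%) lay in an accessible region, against 38.1% of 5653 inside shorter genes and 10.8% of 7103 outside genes. Starts of the host gene itself were in a region in 111 of 273 cases (40.7%), and starts of other transcripts in 46 of 532 (8.65%). Starts inside shorter genes were not split this way, so the 19.5% and 38.1% were not compared at a like mix of starts. Open starts were richer in CpG, with a median of 13 dinucleotides in the 250 bases upstream and 60.0% GC, against 3 and 45.6% at starts without a region. The contrast was not particular to very long genes. Inside shorter genes the values were 14 and 60.8% against 3 and 48.8%, and over all starts 17 and 61.2% against 2 and 46.8%. By cluster, the median number of CpG was 15.5 at the starts in members of clusters 1 and 8, 8 in cluster 9 and 4.5 in cluster 6. These are descriptions, since starts within a gene share their sequence context.

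Open starts deep in the host gene included that of Dab1, a signalling adaptor of neuron migration, 377 kb from the nearest limit (cluster 8, 2419 bp), the Nrxn3 start printed above, at 523 kb, and that of Dpp10, a potassium channel partner, at 713 kb (cluster 1, 881 bp). The Robo1 internal start, for an axon guidance receptor, lay 384 kb from a limit under a 1438 bp region of cluster 4 that also covered a start of the non-coding Gm29908. These genes were chosen after their values were seen. Both ATGCAAAT and GGGCGG were searched in the 300 bases around each start, on both strands. The first, the octamer bound by POU factors such as the stem cell factor Oct4, occurred at 4 of the 171 starts covered by members (2.34%), those of Hdac9, Nrxn3, Gse1 and the non-coding Gm39103 inside Adam12, against 1.75% of all 31396 starts. Among starts that lay in a region it occurred at 1.44% of all, 1.21% inside shorter genes and 3.12% outside genes. In the Nrxn3 sequence above it is read on the other strand. The second, the core of the GC box, occurred at 88 of the 171 (51.5%), below its share of all starts that lay in a region (66.3%) and of those inside shorter genes (60.2%), and above that of open starts outside genes (31.4%); over all starts, open or not, the share was 36.0%. The words cannot overlap each other, and a match is a description of letters.

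A region counted as at a limit of its gene when its midpoint lay within 1 kb of that limit. Such regions did not separate the genes by a tested measure. Some genes counted as without one, such as Agap1 and Zfp423, had a wide region across a limit with its midpoint further inside. That wide region was counted among their members, so genes with and without an open limit were not compared. The 363 very long genes with a region at a limit held 15.3 ± 4.27 members per Mb (SD, n = 19) and the 170 without one held 12.6 ± 5.11, higher on 13 of 19 autosomes with a difference of 2.75 ± 6.31 (permutation p = 0.0733). None of the 9 clusters differed in share between their members (the smallest permutation adjusted p was 0.251, for cluster 8; 1 of 9, cluster 8, had an unadjusted permutation p under 0.05, at 0.0279). Along the 405 genes with known strand, cut into 5 equal parts from the start, the first part held 20.7% of 3236 members and the last held 24.2%. Per autosome the first differed from the last by -1.87 points ± 8.47 and was higher on 6 of 18 (permutation p = 0.358).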

How the data were processed

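The deposited table gives, for each region, chromosome, start, end and a cluster name assigned by the authors, which is a label with no unit (other) and no count, signal or score; it covers the whole series. Per the submitters' processing notes, the tools were SAMtools 1.6, Picard, cutadapt 1.18 and Bowtie2 2.3.3.1, and the build was mm10. The sources used here do not say how regions were called and clustered, or the depth of each library.

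Regions were placed by midpoint against 21900 RefSeq protein-coding genes of GRCm38.p6 (mm10). The gene table holds limits. Strand and transcript starts came from a RefSeq table of starts, for 405 of 533 very long genes on 18 autosomes. Strand was matched by gene identifier, and a start was assigned to its host gene by symbol. Starts of the remaining autosome were not used here. Shares were compared per autosome, because neighbouring regions share their surroundings, by the sign-flip permutation test (100000 draws, two-sided). These p-values measure the spread between autosomes, not between libraries or cultures. Percentages in the text are over pooled regions unless a mean over autosomes is given. SciPy 1.17.1, pandas 2.3.3, numpy 2.4.6 and matplotlib 3.10.9 ran under Python 3.11.15. Only the test of cluster shares against shorter genes was run on simulated data, with cluster names shuffled among regions within each autosome. Shuffling removes any likeness between neighbouring regions, so that likeness was not part of the check.

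The members, the 11 gene lists (395 of 396 entries matched) and the tests were chosen with earlier results of these data known. Genes were named by rule: the 10 with most members, the 5 with most per 100 kb, the 5 longest, the 5 longest with 0 members, the 2 with most members of each cluster, the first 3 of each list with a member, and the hosts of the 5 widest members, with ties going to the higher number per 100 kb; some results at single genes are left out. Genes at printed sequences and internal starts were picked after their values were seen. Alternatives changed the span, the distance from limits, the placement, the weighting and the comparison class; a distance of 5 kb was added after seeing the data.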

Additional observations from a re-analysis of the deposited data

Results flagged for a closer look

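Chromosome X lies outside the comparisons above, and regions that met the same rule of position were also present there. In the 24 very long genes of X, 47 regions were found, in 19 of the genes, and no control level exists for such a count. Of the 47, 31.9% were in cluster 7, 25.5% in cluster 9, 21.3% in cluster 6, 8.51% in cluster 1, and 6.38% each in clusters 5 and 8, while clusters 2, 3 and 4 held 0. With 47 regions these shares are coarse, and they were not tested against the autosomes.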

How the results depend on the processing

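The cluster 1 difference from shorter genes kept its direction and passed under all 15 other settings tried for it and without each of the 19 autosomes. Leaving out 1 autosome at a time, the difference ranged from -6.09 to -5.36 points in cluster 1, -0.397 to -0.207 in cluster 2, -0.657 to -0.504 in cluster 3, -0.752 to -0.618 in cluster 4, 1.80 to 2.25 in cluster 5, 1.76 to 2.47 in cluster 6, 2.88 to 3.69 in cluster 7, -2.12 to -1.82 in cluster 8 and 1.39 to 2.13 in cluster 9. Differences that lost the threshold were cluster 6 for spans of 500 kb or more (2.23); clusters 3, 4 and 6 over 5 kb from limits, a setting added after seeing the data (-0.326, -0.321 and 1.87); cluster 4 with genes weighted equally (-0.585); clusters 3, 4, 5 and 6 against regions outside genes (-0.300, -0.337, 0.334 and 1.23); and clusters 3, 4, 6, 7 and 8 against genes of 100 to 300 kb (-0.256, -0.180, 0.855, 1.09 and -0.466). Those that gained it were clusters 2 and 9 with a limit of 500 bp (-0.356 and 2.69), cluster 9 without the 10 genes with most members (2.14) and cluster 2 with 1 region per 50 kb (-0.578).

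Far from limits, against shorter genes, clusters 2 and 9 were near 0 at 20 kb (0.0142 and -0.0576) and had the opposite sign, which is that of the comparison without a distance limit, at 10 kb (-0.0122 and 0.602) and at 50 kb (-0.154 and 0.521), none of them passing, and cluster 5 no longer passed at 50 kb (1.23, permutation adjusted p = 0.0877). Against regions outside genes, relative to 20 kb, cluster 5 changed sign at 10 kb (0.0783), cluster 7 passed at 10 kb (2.54), cluster 1 no longer passed at 50 kb (-0.275), and clusters 6 and 8 changed sign at 50 kb (-0.0673 and 0.612). With classes cut at 10 and 50 kb, the near minus far difference no longer passed in cluster 5 (-2.73) and passed in cluster 6 (-4.04). For members with a start, over 5 kb from limits, cluster 1 no longer passed (12.1) and cluster 5 passed (-4.10). The cause was not tested. Of the counts in single genes under other settings, 313 stayed close and 12 moved, 8 of them when regions under 250 bp were left out. No paired analysis was possible because the table holds no value per library, so the replicate block and leaving out each replicate were not run. Depth is unknown, and what it limits could not be assessed.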
